A study of Mus musculus with 72 samples.

Results

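The data described here are the p300 ChIP-seq peak lists of mouse embryonic fibroblasts (MEFs), 4 of the 64 peak lists analysed in the series. The peaks of the 4 lists were merged wherever they overlapped by at least 1 bp, which gave 9180 p300 sites. Of these, 1393 sites were called in both WT lists and in neither DKO list (WT-only sites), and 1730 sites were called in all 4 lists. WT cells were Hmgn1+/+n2+/+ and DKO cells Hmgn1-/-n2-/-, so that the DKO cells lacked both Hmgn1 and Hmgn2, which encode nucleosome-binding proteins. Both groups were untreated MEFs of the C57BL/6 strain, each with 2 libraries that the series names biological replicates. No source used here ties a library to a particular embryo or culture, and the p values below measure the spread between these libraries. The series compared the 2 genotypes by ChIP-seq in MEFs, embryonic stem cells and splenic B cells, and the H3K27ac, Brd3 and CEBPB lists of the same MEF series were used here to describe what else occupied the p300 sites.

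p300 is a lysine acetyltransferase that, together with its close relative CBP, acetylates lysine 27 of histone H3. It has no sequence-specific DNA-binding domain of its own and is brought to enhancers and promoters by transcription factors, among them the AP-1 dimers of Fos and Jun proteins that are abundant in cultured fibroblasts. Brd3 is a bromodomain protein that binds acetylated histones, CEBPB is a leucine zipper transcription factor, and H3K27ac is the acetylated form of the residue that p300 modifies. p300 ChIP-seq peaks away from promoters are commonly used to mark enhancers.

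The labelled cell type was checked with H3K27ac peaks at promoters. All 9 fibroblast markers, such as Col1a1, Pdgfrb and Twist1, had a promoter peak in each of the 4 H3K27ac libraries. None of the 7 embryonic stem cell markers, the 6 B cell and leukocyte markers or the 4 epithelial markers had one in any library. Promoter peaks were also called at 2 of 4 macrophage markers (Csf1r and Cd68) and at the neural marker Tubb3 in every library, and at the endothelial marker Kdr in DKO replicate 1. No p300 peak lay on Hmgn1 or Hmgn2 in any library. On Hmgn2, both WT libraries had 3 H3K27ac peaks and both DKO libraries 0. On Hmgn1, the WT libraries had 2 and 2 H3K27ac peaks and the DKO libraries had 4 and 5, so that the peak lists do not show the loss of this gene.

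The sequences under the strongest sites show what p300 occupied. Each is the 101 bases around the summit, the position of highest signal, on the plus strand of mm9. Capitals mark matches to 4 short motifs searched on both strands: AP-1 (TGANTCA), the TEAD motif GGAATG bound by the DNA partners of YAP, RUNX (TGTGGTT) and C/EBP (TTGCNNAA). A match describes the letters in the window and is no evidence of binding. The following 5 are among the 10 strongest WT-only sites, and 4 are shown because they hold a match and Cdh5 because it is the strongest. Windows of 101 bases without any match were common, at 5 of the 10 (Cdh5, Ubb, Fscn1, Ablim1 and Cald1).
Cdh5, chr8:106437963-106438063: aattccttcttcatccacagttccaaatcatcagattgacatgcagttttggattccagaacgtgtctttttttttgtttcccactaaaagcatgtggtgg
Fam48a, chr3:54345446-54345546: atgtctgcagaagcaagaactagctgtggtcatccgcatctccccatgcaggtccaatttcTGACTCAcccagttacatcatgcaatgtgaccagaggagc
Camta1, chr4:150785943-150786043: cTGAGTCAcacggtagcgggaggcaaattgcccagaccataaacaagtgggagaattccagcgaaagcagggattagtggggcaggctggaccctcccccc
P2ry12, chr3:59094585-59094685: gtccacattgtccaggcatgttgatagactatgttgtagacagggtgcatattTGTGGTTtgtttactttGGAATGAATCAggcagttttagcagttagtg
Fah, chr7:91695367-91695467: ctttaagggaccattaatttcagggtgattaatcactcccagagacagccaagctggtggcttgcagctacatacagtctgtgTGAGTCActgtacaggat
In the P2ry12 sequence the TEAD and AP-1 matches overlap. The next 5 are among the 10 strongest sites called in all 4 libraries, and were chosen because they hold a match. Of the 9 windows read at those sites, the other 4, nearest Sbf2, Dtwd1, Glrp1 and Tnk2, hold none.
Fmn2, chr1:176571245-176571345: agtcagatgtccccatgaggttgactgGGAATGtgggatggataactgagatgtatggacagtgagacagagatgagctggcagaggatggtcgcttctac
Fam198b, chr3:79793439-79793539: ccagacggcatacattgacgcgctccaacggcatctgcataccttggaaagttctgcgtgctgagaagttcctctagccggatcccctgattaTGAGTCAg
Adcyap1r1, chr6:55388111-55388211: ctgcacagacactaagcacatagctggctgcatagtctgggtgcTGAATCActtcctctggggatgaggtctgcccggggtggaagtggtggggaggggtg
C130026L21Rik, chr5:112319964-112320064: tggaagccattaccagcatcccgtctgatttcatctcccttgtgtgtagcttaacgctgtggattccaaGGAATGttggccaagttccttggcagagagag
Vmp1, chr11:86437940-86438040: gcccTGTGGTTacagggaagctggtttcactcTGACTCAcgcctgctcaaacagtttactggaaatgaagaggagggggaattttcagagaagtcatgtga
The last 5 lie at sites that were called in all 4 libraries with lower p300 fold enrichment in DKO cells. All 5 hold a match, while 2 of the 11 windows at such sites, nearest Coro2b and Ube2v2, hold none. The sequences nearest Bbox1 and Krt18 hold a C/EBP match, those nearest Bbox1, Gfra1 and Gadd45g an AP-1 match, and that nearest Irf2bp2 a TEAD match.
Bbox1, chr2:110026849-110026949: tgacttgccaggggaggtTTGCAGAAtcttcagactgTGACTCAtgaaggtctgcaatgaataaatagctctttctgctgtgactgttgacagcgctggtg
Irf2bp2, chr8:129127267-129127367: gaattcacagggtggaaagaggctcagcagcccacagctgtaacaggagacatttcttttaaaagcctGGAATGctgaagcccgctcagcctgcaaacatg
Krt18, chr15:101876265-101876365: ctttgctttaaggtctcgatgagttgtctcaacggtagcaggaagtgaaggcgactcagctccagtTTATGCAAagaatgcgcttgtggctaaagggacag
Gfra1, chr19:58179187-58179287: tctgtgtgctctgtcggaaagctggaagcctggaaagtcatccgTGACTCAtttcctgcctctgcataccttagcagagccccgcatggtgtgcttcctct
Gadd45g, chr13:52065595-52065695: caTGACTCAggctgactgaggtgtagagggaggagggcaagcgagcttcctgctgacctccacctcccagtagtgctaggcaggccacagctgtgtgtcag

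p300 peaks were fewer in DKO than in WT MEFs. The WT libraries held 7323 and 5398 peaks and the DKO libraries 2974 and 3325, which gave means of 6360.5 ± 1361 and 3149.5 ± 248 (SD, n = 2 each). The lower WT library lay above the higher DKO library. The log2 number of peaks differed by −1.0 (SE 0.20, adjusted p = 0.0211), in limma's moderated test fitted over the 16 antibodies of the series. The labels give 1 input library for each MEF genotype, so that the libraries of a genotype share their control, and a difference between the inputs cannot be told apart from one between the genotypes, nor does it enter the spread between replicates. Of those 16 antibodies, 9 had fewer peaks in DKO cells in the same test (56.2%), p300 among them. They were all of the B cell antibodies and, in MEFs, p300, Brd3, CEBPB and H3K27me3. No antibody in embryonic stem cells was among them, and Nanog, Oct4 and Sox2 had more peaks in DKO cells in that test. The call rested on the spread among libraries, since an exact permutation of 2 against 2 libraries cannot give a two-sided p below 0.333. Without DKO replicate 1 the adjusted p of the limma test rose to 0.101, and without DKO replicate 2 to 0.0757.

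The peaks themselves were alike in form. Median widths were 211 and 195 bp in WT and 198 and 195 bp in DKO libraries. The median fold enrichment, which is the ratio of reads at the summit to the local background, was 6.14 and 6.56 in WT and 6.67 and 6.52 in DKO libraries. The number of reads piled up at each summit was recovered from fold enrichment and p, and was whole for all peaks of 3 libraries and 99.77% of those of WT replicate 2. The median summit held 21 and 18 reads in WT and 20 and 20 reads in DKO libraries. The lowest background of a library, used here in place of its depth, was 1.58 and 1.15 reads in WT and 1.22 and 1.27 reads in DKO libraries. By this measure WT replicate 1 was the highest and WT replicate 2 the lowest of the 4. Library read totals were not used, so this is no direct ranking of depth. Thinning each library to the lowest background left a log2 difference of −0.97 (limma, adjusted p = 0.0211).

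Most DKO peaks overlapped WT peaks. Of the DKO replicate 1 peaks, 85.1% overlapped a peak of WT replicate 1 and 76.9% a peak of WT replicate 2. For DKO replicate 2 these shares were 84.0% and 74.0%. In the other direction, 34.4% and 38.0% of the WT replicate 1 peaks were found in the DKO lists, and 42.4% and 45.5% of those of WT replicate 2. The WT lists shared more with each other, with 56.7% of the replicate 1 peaks found in replicate 2 and 77.5% in reverse. The DKO lists shared 67.4% and 60.2% with each other, which was less than each shared with either of the longer WT lists. A longer list gives more chances of overlap, so the top 2974 peaks of each library were also compared. At this equal length, 65.8% and 66.1% of the WT peaks were found in the other WT list and 63.7% and 63.6% of the DKO peaks in the other DKO list. The shares found across genotypes were lower, from 58.5% to 61.7%.

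Sharing followed peak strength. Peaks of each library were put in 5 classes by p. Of the weakest WT replicate 1 peaks, 26.0% were found in WT replicate 2, 10.99% in DKO replicate 1 and 12.2% in DKO replicate 2. Of the strongest, 95.9% were found in WT replicate 2, 80.1% in DKO replicate 1 and 83.7% in DKO replicate 2. The plot of sharing by strength uses the full lists, so its levels also depend on their lengths.

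**Figure D1:**
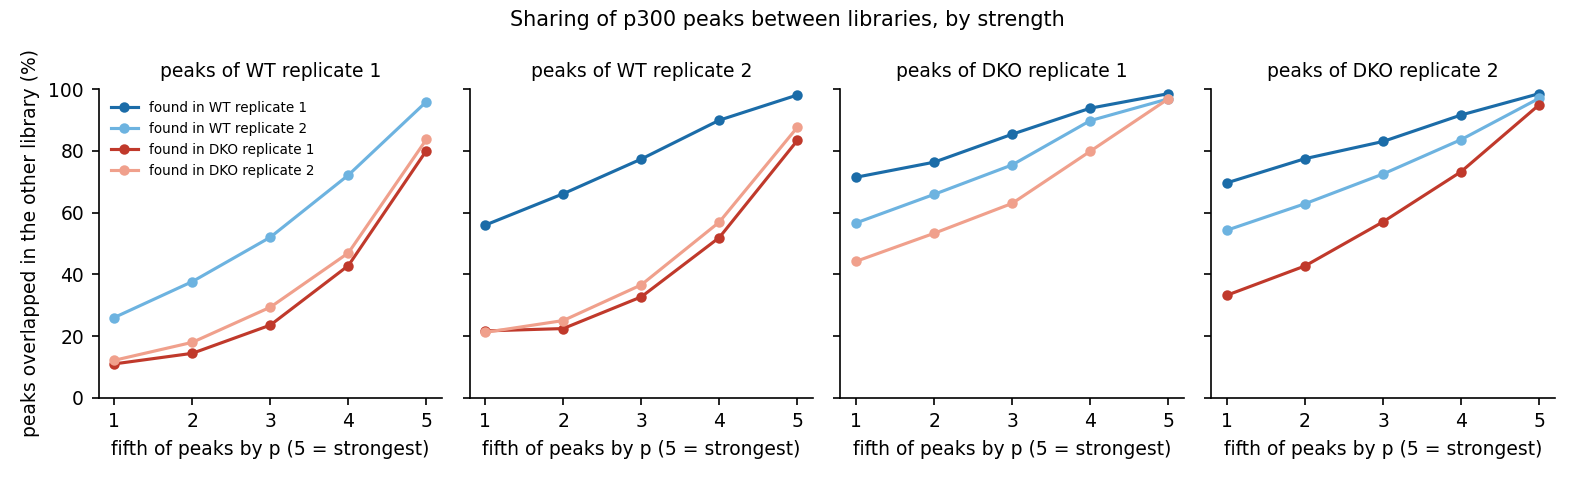
Share of the p300 peaks of each library (1 panel per library) that overlapped a peak of each other library (y axis, %), for 5 classes of peaks by p (x axis, 5 = strongest). Every line rises with strength, and for WT peaks the share found in the other WT library (blue) lies above the shares found in the DKO libraries (red).

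The 9180 sites fell into classes by the lists that called them. The WT-only sites made up 15.2% of all sites and the sites called in all 4 lists 18.8%. A further 3524 sites were called in a single WT list, and 58 sites were called in both DKO lists and neither WT list (DKO-only sites). Of the 4149 sites called in both WT lists, 33.6% were in neither DKO list, 24.7% in 1 DKO list and 41.7% in both. These shares describe lists cut at a q of 0.01, whose weakest peaks had a −log10 q of 2.04 and 2.18 in WT and 2.01 and 2.06 in DKO libraries. A site absent from a list has no value there and is not shown to lack p300.

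WT-only sites were the weaker ones. Sites called in both WT lists were ranked by their mean −log10 p in WT cells, and the WT-only share fell from 62.9% in the weakest of 5 classes through 50.96%, 35.3% and 16.1% to 2.53% in the strongest. The share called in all 4 lists rose from 11.6% to 89.5%. The median summit of a WT-only site held 20 and 16 reads in the 2 WT libraries, against 33 and 25 reads at sites called in all 4. When the same number of top peaks (2974, that of the shortest list) was taken from each library, 293 sites were WT-only and 254 were DKO-only. Equal list lengths draw these numbers together largely by construction, so their closeness says nothing of a difference in p300 between the genotypes.

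p300 sat mainly away from promoters. Promoters, taken as 1000 bp on either side of protein-coding starts, held 3.23% of the WT-only sites, while 37.8% were intronic and 57.7% between genes. For the sites called in all 4 lists, these shares were 2.89%, 34.0% and 62.1%. Outside promoters, the median distance to the nearest start was 51160 bp for WT-only sites and 58515 bp for sites called in all 4.

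H3K27ac was present at most p300 sites in both genotypes. At WT-only sites an H3K27ac peak was found in 68.5% and 66.0% with the WT libraries and in 63.0% and 64.5% with the DKO libraries. At sites called in all 4 lists the shares were 85.03% and 82.8% in WT and 84.9% and 85.7% in DKO libraries. At 1 bp overlap, the acetylation peaks at p300 sites called in all 4 thus did not separate the genotypes. At WT-only sites both DKO libraries lay below both WT libraries by a few percentage points. These orders depended on the overlap rule. With the p300 summit inside the acetylation peak, the WT-only shares were 30.9% and 29.4% in WT and 31.0% and 31.4% in DKO libraries. At sites called in all 4 they were then 29.8% and 28.2% in WT and 36.2% and 40.1% in DKO libraries. Within 500 bp, both DKO libraries lay below both WT libraries in both classes.

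Brd3 peaks were found at fewer p300 sites in DKO than in WT libraries. At WT-only sites a Brd3 peak was found at 35.5% and 35.3% of the sites in WT libraries and at 4.88% and 6.82% in DKO libraries. At sites called in all 4 p300 lists the shares were 60.8% and 62.3% in WT and 15.0% and 19.5% in DKO libraries. Over all p300 sites these shares were 37.3% and 36.9% in WT and 6.97% and 8.94% in DKO libraries. The DKO Brd3 lists were themselves shorter, with a log2 difference in peak number of −1.66, and list length was not equalised for Brd3. Fewer sites with a Brd3 peak in DKO libraries were thus seen over all p300 sites, and also where p300 was called in every library.

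CEBPB peaks were found at 25.6% and 26.3% of WT-only sites with the WT and at 11.5% and 12.2% with the DKO libraries. At sites called in all 4 p300 lists the shares were 34.8% and 35.7% in WT and 16.5% and 17.3% in DKO libraries. Over all p300 sites they were 23.5% and 24.3% in WT and 11.2% and 12.0% in DKO libraries. The DKO CEBPB lists were also shorter, with a log2 difference in peak number of −1.50, and their length was not equalised. For each of the 3 antibodies, a smaller share of WT-only sites than of sites called in all 4 had a WT peak. The same order held within each of the 5 strength classes for H3K27ac and Brd3, and in all classes but the strongest, with 21 WT-only sites, for CEBPB. WT-only sites lay near the level of all 9180 sites, with a peak in either WT library at 45.2% against 45.9% for Brd3, 74.6% against 70.8% for H3K27ac and 29.0% against 26.97% for CEBPB. Merged sites were narrower in the WT-only class, with a median of 238 bp against 348 bp at sites called in all 4. When the p300 summit had to lie inside the acetylation peak, the WT-library H3K27ac shares were 30.2% and 29.0%, and the order of the classes turned.

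**Figure D2:**
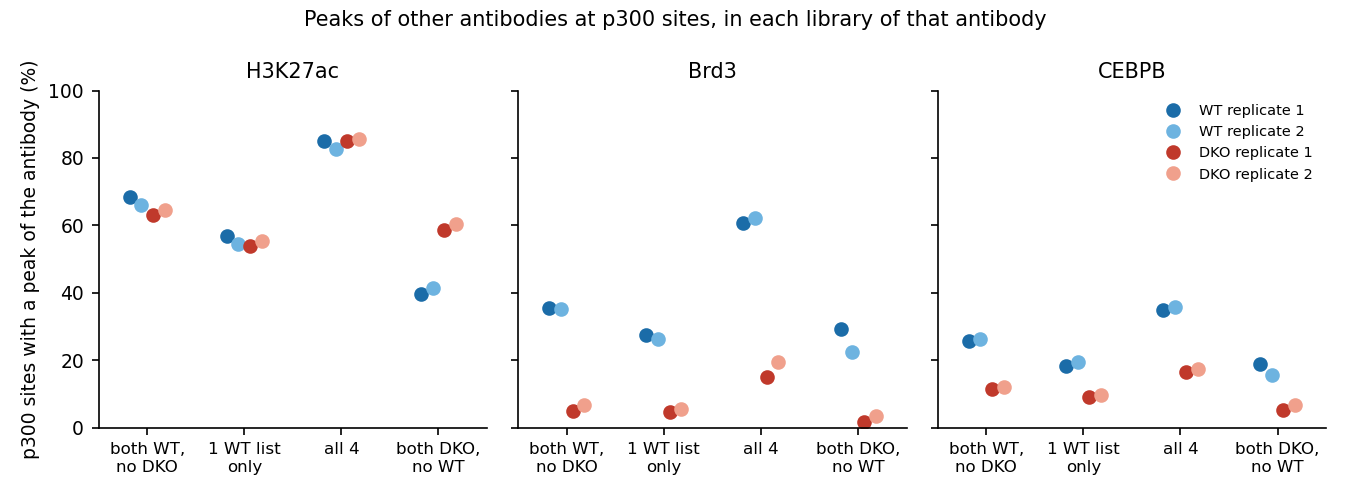
Share of p300 sites that overlapped a peak of H3K27ac, Brd3 or CEBPB (y axis, %) in each library of that antibody (points), for 4 classes of p300 sites (x axis). Red DKO points lie near the blue WT points for H3K27ac and far below them for Brd3, at WT-only sites and at sites called in all 4 alike.

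All 3 partners were found together at 28.2% of the sites called in all 4 p300 lists and at 11.2% of WT-only sites, counting a partner when either WT library called it. H3K27ac with Brd3 but without CEBPB was the most frequent combination in both classes, at 40.4% and 30.6%. None of the 3 was found at 6.24% of the sites called in all 4 and at 15.7% of WT-only sites. Over all 9180 sites, all 3 were found at 12.1% and none at 19.5%. No p300 site of either class overlapped an H3K27me3 peak, the mark of Polycomb repression. Those lists were short, with 553 and 388 WT peaks, and covered 0.0109% of all p300 sites. Peaks of the ES and B cell lists covered at most 6.07% of either class, with Nanog the highest.

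Partner peaks that were lost from the DKO lists were counted next. Of the Brd3 sites called in both WT Brd3 lists, 52% over the whole genome were called in no DKO list. At p300 sites with such a Brd3 peak, the p300 site itself being counted, this was 255 of 357 WT-only sites (71.4%) and 507 of 902 sites called in all 4 (56.2%). For H3K27ac the share was 11.2% over the genome, 53 of 834 (6.35%) at WT-only sites and 21 of 1369 (1.53%) at sites called in all 4. For CEBPB it was 55.2% over the genome, 143 of 319 (44.8%) at WT-only sites and 220 of 534 (41.2%) at sites called in all 4. The genome shares count sites of the partner and the others count p300 sites, so they are not alike in unit. Over all p300 sites the lost shares were 63.4% for Brd3, 4.50% for H3K27ac and 42.3% for CEBPB. For each of the 3 partners the WT-only share thus lay above that over all p300 sites. An H3K27ac peak was kept in both DKO libraries at 85.3% of the 834 WT-only sites. This compares with 88.2% over all p300 sites, and with 78.0% of H3K27ac sites over the genome.

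The height of the partner peaks was compared at partner sites called in all 4 lists of that partner. For H3K27ac, limma called 3.47% of 42234 sites lower and 1.68% higher in DKO cells, with a median log2 difference of −0.08. Of the H3K27ac sites at WT-only p300 sites, 53 of 1158 (4.58%) were lower and 23 (1.99%) higher, with a median of −0.08, and at p300 sites called in all 4, 66 of 1948 (3.39%) were lower and 55 (2.82%) higher, with a median of −0.01. The WT-only class thus lay near the values over all H3K27ac sites, while the class called in all 4 had a larger share of higher calls and a median nearer 0. For Brd3, 18.8% of 5422 sites were lower and 0.424% higher, with a median of −0.39, and the 1018 sites called lower numbered 115 without DKO replicate 1 and 110 without DKO replicate 2. At WT-only p300 sites 32 of 130 (24.6%) were lower and 0 higher, with a median of −0.47, and at sites called in all 4, 94 of 472 (19.9%) were lower and 2 higher, with a median of −0.43. For CEBPB, 67.4% of 4193 sites were lower and 4.44% higher, with a median of −0.68. At WT-only p300 sites 99 of 148 (66.9%) were lower, with a median of −0.67, and at sites called in all 4, 153 of 260 (58.8%) were lower, with a median of −0.55. After centring each library on its median, the calls were 31 lower and 49 higher for Brd3, 944 and 1171 for CEBPB and 855 and 914 for H3K27ac. Centring places the differences around 0 by construction and says nothing of their common direction.

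H3K27ac flanked p300 rather than coinciding with it. In WT replicate 1, the nearest H3K27ac summit lay a median of 289 bp from the p300 summit at WT-only sites and 309 bp at sites called in all 4, over sites with an acetylation summit within 1000 bp. In DKO replicate 1 these distances were 291.5 and 308 bp. At most 2.15% of the sites of either class had an H3K27ac summit within 100 bp, in any of the 4 libraries. CEBPB summits lay closer, at a median of 56 and 59 bp in WT replicate 1, and Brd3 summits at 272.5 and 306 bp.

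The AP-1 motif was found within 100 bp of the summit at 47.8% of WT-only sites and 50.2% of sites called in all 4. It was found in 6.46% and 6.88% of windows of the same length 5000 bp away. The TEAD motif was found at 31.4% and 38.4% of the sites, against 13.1% and 11.3% at a distance, and the RUNX motif at 13.4% and 13.6%, against 4.45% and 4.86%. The C/EBP motif was found at 12.4% and 10.7%, little above the 8.90% and 8.84% found at a distance. By library, AP-1 was found at 48.4% and 47.6% of WT and 47.9% and 49.8% of DKO peaks, and RUNX at 12.4% and 12.9% of WT and 12.6% and 12.6% of DKO peaks, which overlapped. TEAD was found at 33.1% and 33.7% of WT and 36.5% and 34.98% of DKO peaks. C/EBP was found at 11.2% and 11.4% of WT and 10.4% and 10.9% of DKO peaks. Both DKO libraries thus lay above both WT libraries for TEAD and below them for C/EBP. The DKO lists were shorter, and motif shares were not compared at equal list length. From the weakest to the strongest of the 5 strength classes, the TEAD shares at WT-only and all-4 sites were 30.8% and 29.2%, 33.8% and 40.7%, 28.0% and 35.2%, 32.8% and 35.9%, and 33.3% and 42.0%. They were lower at WT-only sites in 4 of the 5 classes, the weakest being the exception. The strongest class held 21 WT-only sites, 7 of them with a TEAD match.

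**Figure D3:**
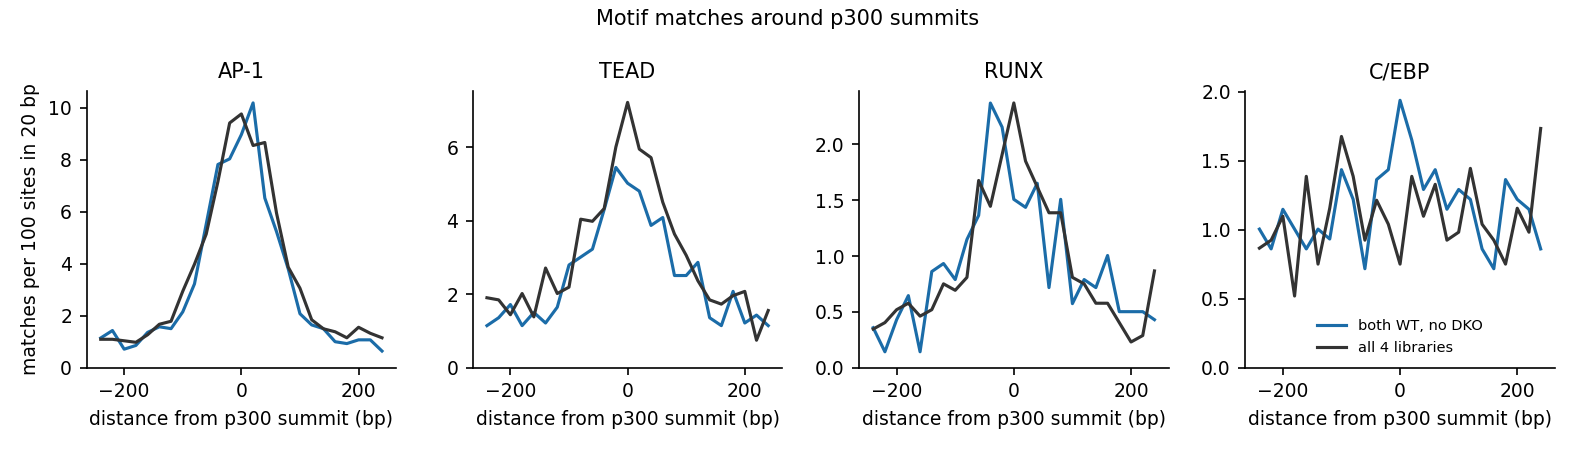
Matches to 4 motifs per 100 p300 sites in bins of 20 bp (y axis, a separate scale for each motif) by distance from the p300 summit in bp (x axis), for WT-only sites (blue) and sites called in all 4 lists (black). AP-1, TEAD and RUNX matches peak near the summit in both classes, with the TEAD peak higher at sites called in all 4, while C/EBP matches show no clear peak at the latter.

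Motif and partner went together for CEBPB. Among WT-only sites with a C/EBP but no AP-1 match, 63.0% had a WT CEBPB peak, against 25.4% of those with neither. Among sites called in all 4 these shares were 67.4% and 36.2%. AP-1 matches without C/EBP left the CEBPB share at 23.0% and 35.6%, close to that of sites with neither motif.

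The 10 strongest WT-only sites lay near genes of diverse function, and a site is named here by its nearest protein-coding start without any statement on regulation. The strongest, nearest Cdh5 (VE-cadherin, an adhesion molecule of endothelial cells), lay between genes at chr8:106437850-106438142, 187383 bp from that start. Its fold enrichment was 15.9 in WT replicate 1 and 12.7 in WT replicate 2, from 47 and 30 reads at the summit, and neither DKO list held it. The site nearest Fam48a (chr3:54345352-54345604) had a fold enrichment of 9.72 and 11.01, from 41 and 34 reads. The site in the promoter of Ubb, which encodes ubiquitin, had 10.9 and 12.5, and an intron of Camta1, a calmodulin-binding transcription activator, held one with 12.2 and 12.02.

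The other 6 lay within or between genes as follows. The intronic site nearest Fscn1, an actin-bundling protein, had a fold enrichment of 11.4 and 8.46. The intronic sites nearest Ablim1, an actin-binding LIM protein, and Cald1, the actin and myosin regulator caldesmon, had 11.8 and 9.24, and 11.02 and 10.3. The remaining 3 lay nearest P2ry12, an ADP receptor (11.3 and 6.92), B230359F08Rik (8.33 and 10.9) and Fah, an enzyme of tyrosine breakdown (12.4 and 8.75). H3K27ac was called at 9 of the 10 sites in both WT and in both DKO libraries, the site nearest P2ry12 being the exception with none. Brd3 was called in both WT libraries at 4 of the 10 and in both DKO libraries at 0. AP-1 matches were found near the summits of 6 of the 10, in the window of 100 bp.

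The 10 strongest sites called in all 4 lists reached higher values. The site in an intron of Fmn2, an actin-nucleating formin, at chr1:176571072-176571519 had a fold enrichment of 36.8 and 34.1 in WT and 36.6 and 42.2 in DKO libraries. The genotypes overlapped at this site. At the site nearest Adcyap1r1, the receptor of the peptide PACAP, the 4 values were 22.8, 22.3, 22.6 and 22.2, almost the same in every library. The site in an intron of Vmp1, which acts in autophagy, had 28.9 and 32.8 in WT and 13.4 and 15.3 in DKO libraries. There both DKO libraries lay below both WT libraries, with a log2 difference of −1.11 (SE 0.24, limma adjusted p = 0.0522), which missed the threshold of 0.05. Its summit held 92 and 89 reads in WT and 50 and 54 in DKO libraries, over backgrounds of 2.21 and 1.74 and of 2.81 and 2.60 reads. Brd3 was called in both WT libraries at 10 of these 10 sites and in both DKO libraries at 2.

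**Figure D4:**
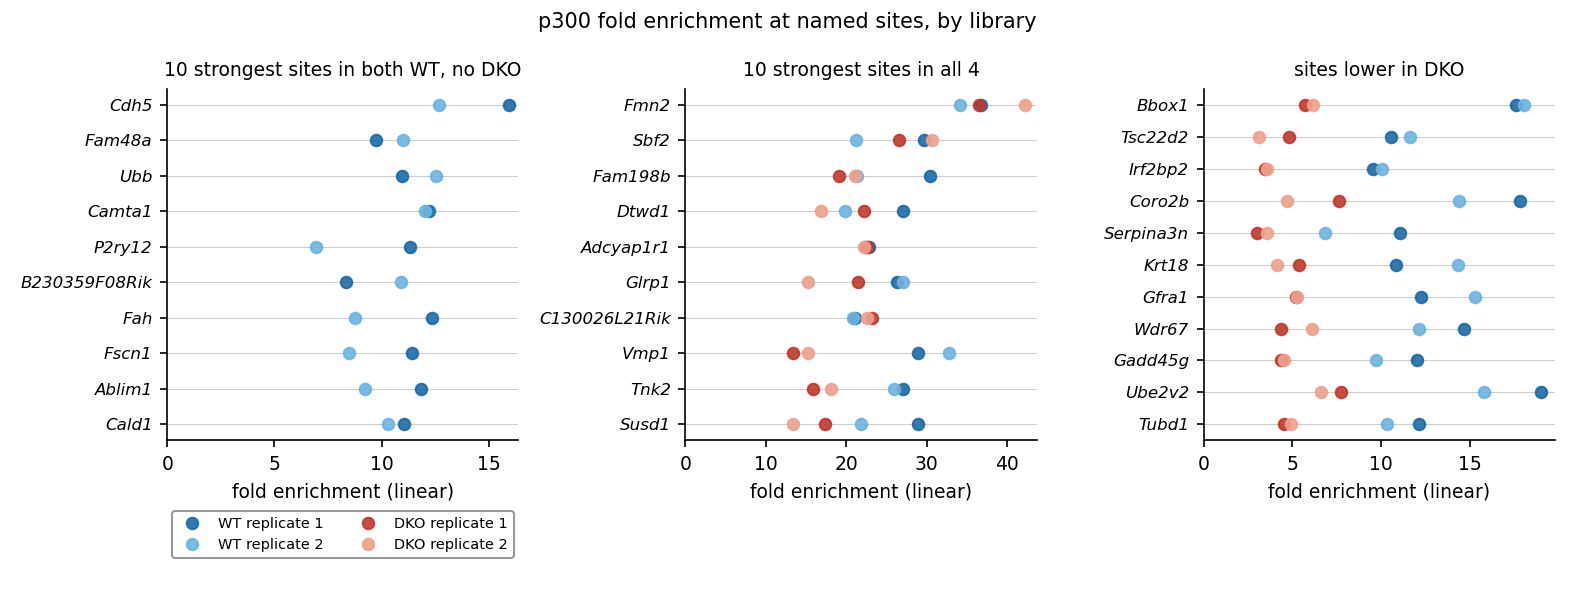
Fold enrichment of p300 (x axis, linear) in each of the 4 libraries (points) at the 10 strongest WT-only sites, the 10 strongest sites called in all 4 lists and the 11 sites with lower fold enrichment in DKO cells, each named by its nearest gene (y axis). WT-only sites have no DKO value because the lists hold called peaks alone, and the genotypes separate at the 11 lower sites, which were chosen by that test.

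DKO-only sites were few, and their median fold enrichment of 6.14 and 6.42 in the DKO libraries was near the 6.09 and 6.20 of WT-only sites in the WT libraries. The strongest of the 58, nearest Ipmk, an inositol phosphate kinase, but 611885 bp from its start, had a fold enrichment of 10.3 and 8.26 in the DKO libraries. The site in the promoter of Gpr149, an orphan receptor, had 7.98 and 8.89. The site in an exon nearest Ncoa3, a nuclear receptor coactivator, had 8.64 and 7.32. Of the 58 sites, 58.6% and 60.3% overlapped an H3K27ac peak in the DKO libraries and 39.7% and 41.4% in the WT libraries. Histone H1 peaks of all 4 H1 libraries overlapped 3 of the 58, and 0 of the WT-only and all-4 sites. The H1 lists held 281 and 284 WT peaks and covered 0.131% of all p300 sites. Of the 13 p300 sites on chromosome Y, 3 were DKO-only, 0 WT-only and 0 called in all 4.

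At the 1730 sites called in all 4 lists, p300 fold enrichment was slightly lower in DKO cells over most sites. The median log2 difference was −0.21, and 67.1% of the sites lay below 0. Both DKO libraries lay below both WT libraries at 712 sites (41.2%) and above them at 247 (14.3%). limma called 11 sites lower in DKO (0.636%) and 0 higher (0%), with 428 sites at an unadjusted p under 0.05. The log2 fold enrichment of the sites correlated at r = 0.73 between the WT libraries and 0.68 between the DKO libraries, and at 0.47 to 0.50 across genotypes. Fold enrichment divides the summit reads by a background that the libraries of a genotype share. The log2 summit reads alone correlated at 0.76 and 0.73 within the genotypes and at 0.67 to 0.72 across them, whereas the log2 background correlated at 0.78 and 0.82 within and at 0.16 to 0.17 across. These correlations are over sites that share libraries and are given as a description. With the summit reads scaled to the depth of each library in place of the local background, the median log2 difference was −0.11, and limma called 4 sites lower and 2 higher, among which were 0 of the 11. The 4 lay nearest Jag1, Zfp608, Gm6133 and 1700040L02Rik and the 2 nearest March5 and B230359F08Rik, and they are named here after their values were seen. The number of calls was not stable. It was 0 lower after centring on the library medians and without either WT library, and 108 lower and 26 higher when the pileup was divided by the background without the caller's pseudocount.

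The 11 sites called lower also had the higher local background in DKO cells. Fold enrichment, which chose these sites, is divided by that background, so lower reads and a higher background in DKO cells both follow in part from the choice and are given as a description. At 11 of the 11, both DKO backgrounds lay above both WT backgrounds, which was so at 24.4% of the sites called in all 4. Their median background was 2.40 and 1.76 reads in WT and 4.42 and 4.77 in DKO libraries. Scaled to depth, their summit reads were lower in both DKO libraries than in both WT libraries at 9 of the 11 and at 535 of the 1729 sites called in all 4 for which reads were recovered. The median log2 difference of the scaled reads was −0.47 at the 11 and −0.11 over all of these sites, and that of the scaled background 1.24 and 0.08. With 1 input for each genotype, a difference in p300 cannot be told apart from one in the input at these sites.

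Their nearest genes were of varied function. The site nearest Bbox1, an enzyme of carnitine synthesis, at chr2:110026554-110027078 had a fold enrichment of 17.6 and 18.05 in WT and 5.72 and 6.19 in DKO libraries, with no overlap of the groups. Its summit held 51 and 43 reads in WT and 30 and 32 in DKO libraries, over backgrounds of 1.95 and 1.44 and of 4.42 and 4.33 reads. Its log2 difference was −1.58 (SE 0.23, limma adjusted p = 0.0342). The site nearest Irf2bp2, a transcriptional corepressor, had 9.56 and 10.1 in WT and 3.47 and 3.56 in DKO libraries, a log2 difference of −1.48 (SE 0.23, limma adjusted p = 0.0342). The site nearest Krt18, a keratin of simple epithelia, had 10.8 and 14.4 in WT and 5.35 and 4.16 in DKO libraries, a log2 difference of −1.40 (SE 0.26, limma adjusted p = 0.0449).

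The intronic site nearest Gfra1, a receptor for glial cell line-derived neurotrophic factor, had 12.2 and 15.3 in WT and 5.20 and 5.25 in DKO libraries. The site nearest Gadd45g, a stress-induced growth arrest gene, had 12.05 and 9.73 in WT and 4.38 and 4.52 in DKO libraries. Its summit reads, 37 and 24 in WT and 21 and 27 in DKO libraries, overlapped between the genotypes, while its background was 2.15 and 1.57 in WT and 4.02 and 5.20 in DKO libraries. The other 6 lay nearest Tsc22d2, the coronin gene Coro2b, the protease inhibitor gene Serpina3n, Wdr67, the ubiquitin-conjugating enzyme variant gene Ube2v2 and the delta-tubulin gene Tubd1, and over all 11 the log2 difference ran from −1.58 to −1.24. H3K27ac was called at 11 of the 11 sites in both WT and in both DKO libraries. Brd3 was called in both WT libraries at 9 and in both DKO libraries at 4. In the same window, 7 of the 11 had an AP-1 match and 3 a C/EBP match. Of the 1730 sites called in all 4, H3K27ac was called in both WT libraries at 1369 and Brd3 at 902. AP-1 matches were found at 50.2% of the 1730 and C/EBP matches at 10.7%.

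**Figure D5:**
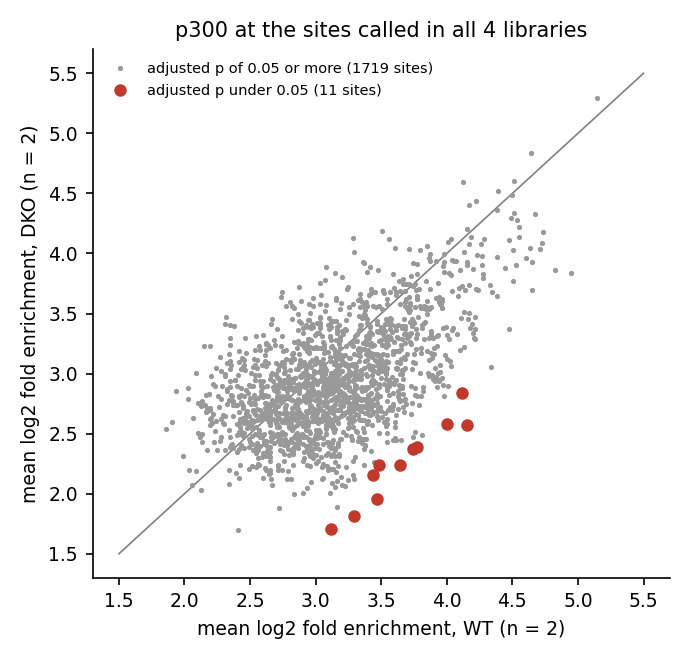
Mean log2 fold enrichment of p300 in DKO (y axis) against WT (x axis) libraries, n = 2 each, at the 1730 sites called in all 4 lists (points), with the line of equal values. Most points lie below the line, the median log2 difference being −0.21, and the 11 red points have a limma adjusted p under 0.05.

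The sites called in all 4 were split by their log2 difference into 3 groups of equal size, as a description. Those that were lowest in DKO cells had a median log2 difference of −0.61, and those that were highest 0.23. H3K27ac was called in both WT libraries at 83.5% of the lowest group and 74.5% of the highest group, and Brd3 at 56.3% and 47.5%. The lowest group also held the stronger WT peaks, with a median −log10 p of 26.9 against 16.1, which follows in part from the split, since the WT value enters the log2 difference. The partner shares in both DKO libraries were ordered the same way, at 84.1% and 78.3% for H3K27ac and 14.0% and 7.11% for Brd3. The part that peak strength had in these shares was not tested.

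Some genes gathered many p300 sites. Cited2, which encodes a p300- and CBP-binding transcriptional regulator, was the nearest gene to 26 sites, of which 5 were WT-only and 6 were called in all 4. These sites stretched up to 1178417 bp from its start. Myc, the transcription factor gene, was nearest to 25 sites, with 1 WT-only and 13 in all 4. Thbs1, which encodes the matrix protein thrombospondin 1, was nearest to 23, with 5 and 12. Klf6, a zinc finger factor gene, had 2 WT-only sites and 8 in all 4, Rasgrp1, a Ras activator, 1 and 8, and 2610203C20Rik 3 and 10. Asap1, which acts on Arf GTPases, and Ext1, which builds heparan sulphate chains, had 5 WT-only sites each, with 4 and 1 in all 4, and 4930558K02Rik had 5 and 2.

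The 9180 sites had 4124 nearest genes. WT-only sites were nearest to 1137 of them (27.6%) and sites called in all 4 to 1205 (29.2%). Both classes were found at 381 genes, which is 33.5% of the genes of WT-only sites and 31.6% of those of the sites called in all 4.

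Thbs1 had sites of both classes interspersed along its locus. Its strongest site, 152030 bp from the start, had a fold enrichment of 22.8 and 20.8 in WT and 11.7 and 18.5 in DKO libraries. The next, at 229371 bp, had 21.0 and 17.8 in WT and 11.8 and 16.3 in DKO libraries. In both, the DKO values lay below the WT values, with limma adjusted p of 0.215 and 0.272. The promoter site, 898 bp from the start, had 9.90 and 8.21 in WT and 7.83 and 10.4 in DKO libraries, which overlapped. The 5 WT-only sites lay from 72073 to 362513 bp away, and the strongest of them had a fold enrichment of 7.17 and 8.75.

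Extracellular matrix genes were the nearest genes to 106 p300 sites, and 20 of the 22 genes of the list had at least 1. Of these sites 15 (14.2%) were WT-only and 32 (30.2%) were called in all 4, against 15.2% and 18.8% of all sites. The collagen gene Col5a2 had 4 of its 6 sites called in all 4, and Tnc, encoding tenascin C, 4 of 8. At Col1a1, the major fibrillar collagen, 3 sites were found, of which 1 was WT-only, 2304 bp from the start, with 8.82 and 5.98 in the WT libraries, and 0 were called in all 4. Thbs1 alone gave 12 of the 32 sites called in all 4.

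Genes of the TGF-beta and YAP response were nearest to 84 sites, of which 8 (9.52%) were WT-only and 25 (29.8%) were called in all 4, against 15.2% and 18.8% of all sites. Ctgf, a matricellular growth factor gene and YAP target, had 6 of its 8 sites called in all 4. Its promoter site had a fold enrichment of 15.7 and 14.6 in WT and 14.0 and 10.9 in DKO libraries, both DKO values being below the WT values, with a limma adjusted p of 0.482. At Cyr61, a related YAP target, 3 of 9 sites were WT-only. Its promoter site was among them, with 5.55 and 5.42 in the WT libraries. The promoter site of Ankrd1, another YAP target, had 5.52 and 4.07 in WT and 7.29 and 9.36 in DKO libraries, with both DKO values above both WT values and a log2 difference of 0.80 (limma adjusted p = 0.0914). Its summit reads overlapped, with 32 and 19 in WT and 21 and 28 in DKO libraries, and its background was 4.98 and 3.92 in WT and 2.02 and 2.099 in DKO libraries.

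The other lists held fewer sites, to be read against the same 15.2% and 18.8%. Mesenchymal transcription factor genes were nearest to 76 sites, with 8 WT-only (10.53%) and 12 in all 4 (15.8%). Among them Runx1 had 17 sites, with 3 and 2, and Twist2 had 6, with 0 and 3. AP-1 factor genes had 9 sites, with 2 WT-only, nearest Jun and Jdp2, and 0 in all 4. C/EBP family and inflammatory genes had 15 sites, with 1 WT-only, nearest Tnfaip3, and 2 in all 4, nearest Cebpb and Ptgs2. The list of acetyltransferases, bromodomain readers and their partners had 30 sites, 26 of them nearest Cited2, with 5 WT-only and 6 in all 4. These counts depend on the nearest-start rule. When a site was given to any start within 100000 bp, the AP-1 list had 4 WT-only sites and 2 in all 4, the mesenchymal list 4 and 5, the acetyltransferase list 1 and 0, and the extracellular matrix list 10 and 19, of which the AP-1 counts rose and the others fell.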

How the data were processed

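The p300 peak lists of 4 MEF libraries, 2 of each genotype, were analysed, with the other lists of the series as context. Per the labels' processing notes, reads were handled with bcl2fastq 1.8.4, cutadapt 1.16, BWA 07.17 and MACS2 2.1.1.20160309 on mm9, and the authors removed blacklisted regions and called peaks per library against input, of which the labels list 1 for each MEF genotype. The deposited fold enrichment, a ratio of summit pileup to local background with a pseudocount, and the −log10 p and −log10 q as deposited are the output of MACS2 as run by the authors, whose score column was left aside. Lists hold called peaks only, and library totals were not used here, so depth was judged from the lowest background. A pileup was called whole within 0.0005 of −log10 p.

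Peaks were merged at 1 bp with Python 3.11.15 and pandas 2.3.3. log2 peak numbers (16 antibodies) and log2 fold enrichment (sites called in all 4 lists of an antibody) were compared with limma 3.58.1 in R 4.3.3, without a replicate block, with Benjamini-Hochberg adjustment at 0.05. Genes and promoters (1000 bp) came from GENCODE vM1, and sequences from the NCBIM37 (mm9) genome. Scripts were tested on simulated data.

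The members, gene lists and tests were chosen with earlier results of these data known. Named were the 10 strongest WT-only and all-4 sites by mean −log10 q, up to 10 sites in each direction that passed the fold enrichment test, the 3 strongest DKO-only sites, the 5 genes nearest to the most sites of each class, the genes of the lists, and Hmgn1 and Hmgn2. The eleventh site that passed, nearest Tubd1, was added after its values were seen. Alternatives were stricter peak thresholds, equal list lengths, other matching, thinning, centring, another variance prior, a replicate block and leaving out each library.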

Additional observations from a re-analysis of the deposited data

How the results depend on the processing

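The lower p300 peak number in DKO cells kept its direction under every alternative run, with log2 differences of −1.22 to −0.78 when each library was left out in turn. It lost its call with a replicate block (log2 difference −1.0, limma adjusted p = 0.074) and without either DKO library. Replicate numbers did not pair the libraries (r = −0.01 between the deviations of same-numbered p300 libraries). WT-only sites numbered 293 and DKO-only sites 254 with equal list lengths, and 1822 to 3918 and 98 to 399 when a library was left out, where 1 list then stood for a genotype. Sites called in all 4 lists numbered 1257 to 1713 under the other alternatives with all 4 libraries, and 1771 to 2326 without 1 library.

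Calls of lower and higher p300 fold enrichment numbered 0 and 0 after centring and at sites called in at least 3 lists with the uncalled at the lowest value, 108 and 26 without the pseudocount, 71 and 7 at sites with −log10 p of at least 10, 65 and 4 with a trended prior, and 27 and 1 with the uncalled at the 5th percentile, a setting chosen after seeing the data. The summit reads scaled to depth, also chosen after seeing the data, gave 4 and 2, and called 0 of the 11 named sites. Leaving out a library gave 0 to 45 lower and 0 to 6 higher. The 11 named sites kept a negative difference in every alternative that gave them a value, and the replicate block called 10 of them. Counts for Brd3 were 31 lower and 49 higher after centring, 41 higher with the replicate block, and 110 to 779 lower and 0 to 29 higher with a library left out. H3K27ac gave 855 lower and 914 higher after centring, and 2654 lower and 1283 higher with the block. CEBPB gave 944 lower and 1171 higher after centring, and 120 to 159 higher with a library left out. The block moved no other count of calls beyond 1.5 times. The causes were not tested.

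With the p300 summit required inside the partner peak, the WT-library Brd3 share was 20.1% at WT-only and 33.3% at all-4 sites. The order of the classes was thus kept. For H3K27ac the shares were 30.2% and 29.0%, and the order was not kept. With partner peaks within 500 bp, the shares were 54.5% and 79.2% for Brd3 and 89.9% and 95.8% for H3K27ac. Sharing of p300 peaks at equal list length was also added after seeing the data. With a 50 bp motif window the AP-1 shares were 34.6% at WT-only and 35.2% at all-4 sites. In the same order, they were 20.5% and 25.3% for TEAD, 8.54% and 8.15% for RUNX, and 6.96% and 4.97% for C/EBP. With any start within 100000 bp, the extracellular matrix list had 19 of 82 sites called in all 4, the mesenchymal list 4 WT-only and 5 in all 4 of 43, the AP-1 list 4 and 2 of 21, and the acetyltransferase list 1 and 0 of 6, while the WT-only and all-4 counts of the other 2 lists moved by at most 1.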
